A study of Mus musculus with 8 samples.

Results

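Cd74, H2-Aa, H2-Ab1, H2-Eb1, Apoe, C1qa, C1qb, C1qc, Cd68 and Lyz2 are 10 genes whose transcripts are abundant in macrophages or encode MHC class II antigen presentation, and 9 of the 10 are among the 20660 genes that could be named on the array. They were chosen by their measured Eif6+/- over WT ratios in these muscles, so those ratios are given here as a description, with no test. A gene's probes were found through the RefSeq accession of each probe, which gave 10 probes for 9 of the 10 genes, H2-Ab1 having 2 probes. No probe was matched to Cd68, which encodes a lysosomal membrane glycoprotein of macrophages, and it was not analysed here.

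Macrophages live in the connective tissue between muscle fibres, take up debris and dying cells, and increase in number after injury. MHC class II molecules are made of an alpha and a beta chain, carry peptides from internalised protein to the cell surface, and are shown to CD4 T cells by macrophages, dendritic cells and B cells. The complement protein C1q, apolipoprotein E and lysozyme are secreted in quantity by macrophages, although Apoe is also transcribed in other cells.

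The study compared mice that carry 1 working copy of Eif6 (Eif6+/-), a factor needed for 60S ribosomal subunit biogenesis and for translation, with wild-type (WT) mice. All were male C57BL6 littermates aged 8 to 16 weeks. There were 4 arrays of gastrocnemius and 4 of tibialis anterior (TA), and every array held the RNA of 1 Eif6+/- mouse in Cy5 and of 1 age-matched WT mouse in Cy3, the mice having been paired at random. No array had the dyes swapped, so a dye difference and a genotype difference cannot be told apart, and the muscles lay in different rows of 1 slide, so row and muscle cannot be told apart. The Eif6 probe of higher signal checked the labels: its log2 ratio of Eif6+/- over WT was -0.97, -1.15, -0.89 and -1.06 on gastrocnemius pairs 1 to 4 and -1.22, -1.03, -0.95 and -0.80 on TA pairs 1 to 4. Eif6 was lower in the Eif6+/- mouse on all 8 arrays, by a mean of -1.02 ± 0.11 in gastrocnemius and -1.0 ± 0.17 in TA (SD, n = 4).

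The WT gastrocnemius samples of pairs 1 and 3 had higher levels than those of pairs 2 and 4 for 8 of the 9 measured genes, Cd74 being the exception, and every gastrocnemius result below rests in part on them. The median log2 ratio of the 9 measured genes was -1.34 on pair 1 and -1.94 on pair 3, against 0.00 on pair 2 and -0.26 on pair 4. All 9 genes were below 0 on pairs 1 and 3, 4 of 9 on pair 2 and 7 of 9 on pair 4, while 44.9% to 46.6% of all genes kept in this muscle were below 0 on any of these arrays. The size of the ratio thus differed widely between arrays of the same muscle. These are whole muscles, so macrophage number, RNA per macrophage and RNA of other cells cannot be told apart. That holds for high levels in WT samples and for low levels in Eif6+/- samples alike.

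**Figure D1:**
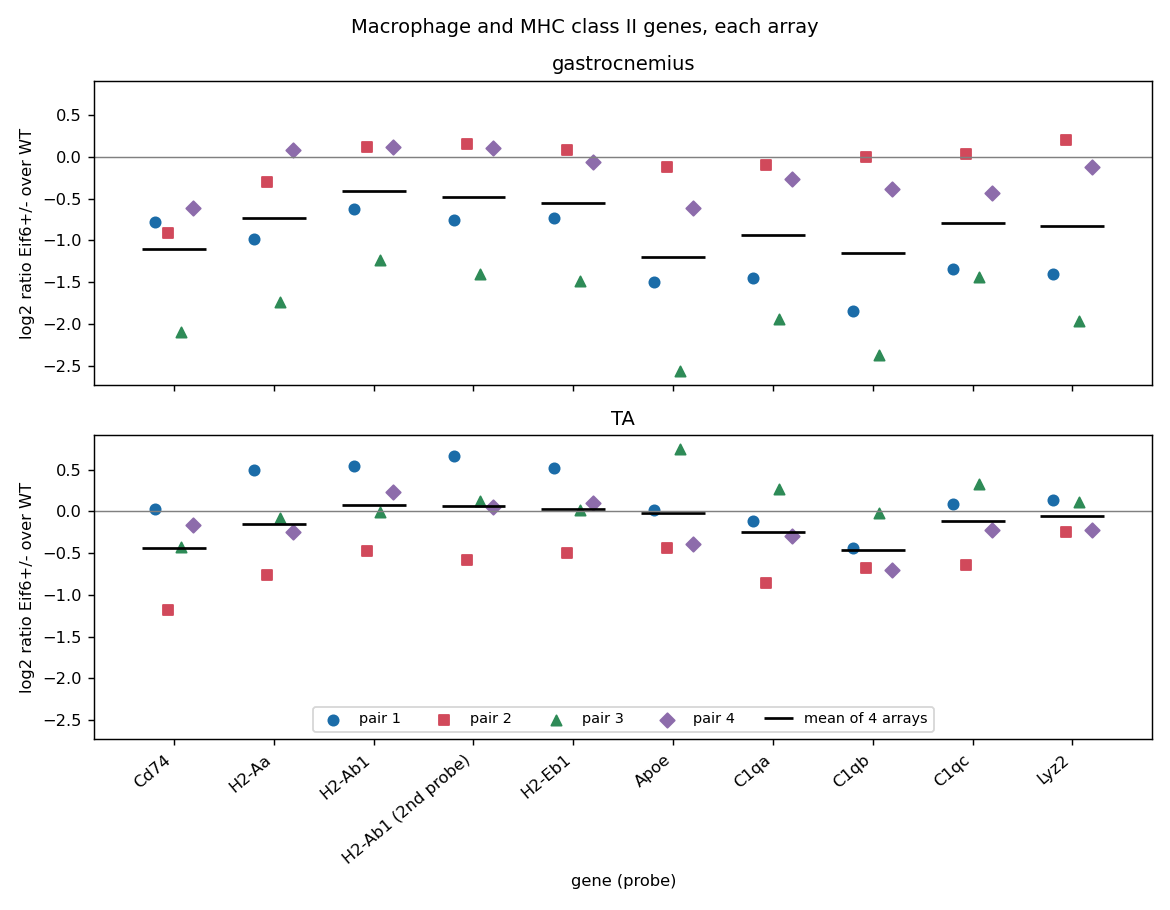
Log2 ratio of Eif6+/- over WT (vertical axis) for every probe of the 9 measured genes (horizontal axis), with 1 point per array and a bar at the mean of the 4 arrays of a muscle. In gastrocnemius the points of pairs 1 and 3 lie lowest for every gene except Cd74, where pair 2 lies below pair 1; in TA the points scatter around 0 and pair 2 is the lowest for every gene except C1qb.

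Cd74 encodes the invariant chain, which guards the peptide groove of class II molecules until they reach the endosome. Its log2 ratios in gastrocnemius were -0.78, -0.91, -2.09 and -0.61 on pairs 1 to 4, and in TA they were 0.03, -1.18, -0.43 and -0.17. The gastrocnemius levels on the log2 intensity scale were 10.75, 10.92, 11.96 and 10.42 in WT and 9.97, 10.01, 9.87 and 9.81 in Eif6+/- mice. The genotypes did not overlap in gastrocnemius, where the mean ratio was -1.10 ± 0.67 (SD, n = 4), a fold of 0.467. TA levels overlapped, at 10.01 to 10.52 in WT and 9.05 to 10.36 in Eif6+/- mice, with a mean ratio of -0.44 ± 0.53. Of the MHC class II genes, Cd74 alone was below 0 on all 4 gastrocnemius arrays.

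H2-Aa encodes the alpha chain of the class II molecule I-A. Its gastrocnemius ratios were -0.99, -0.30, -1.74 and 0.08, and its TA ratios 0.49, -0.76, -0.08 and -0.25. In gastrocnemius the WT levels of pairs 1 and 3, 8.95 and 9.24, were high beside those of pairs 2 and 4, 8.18 and 7.96, and the Eif6+/- levels ran from 7.5 to 8.04. The WT and Eif6+/- levels overlapped, and the mean ratio of -0.74 ± 0.80 was smaller than its SD.

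H2-Ab1 encodes the beta chain that pairs with H2-Aa. The probe of higher signal gave -0.63, 0.12, -1.23 and 0.12 in gastrocnemius and 0.55, -0.47, -0.01 and 0.24 in TA. The other probe gave -0.76, 0.15, -1.40 and 0.10 in gastrocnemius and 0.67, -0.58, 0.12 and 0.05 in TA, so the probes had the same sign on every array but TA pair 3. Both placed pairs 1 and 3 below 0 and pairs 2 and 4 just above it in gastrocnemius, where the means were -0.40 ± 0.65 and -0.48 ± 0.75.

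H2-Eb1 encodes the beta chain of the other class II molecule, I-E. Its ratios were -0.73, 0.08, -1.48 and -0.06 in gastrocnemius and 0.52, -0.49, 0.01 and 0.10 in TA. Again the WT gastrocnemius samples of pairs 1 and 3 were the high ones, at 11.53 and 12.15 against 10.78 and 10.65, and the Eif6+/- samples stayed between 10.59 and 10.86. The mean gastrocnemius ratio was -0.55 ± 0.72, and the TA mean of 0.03 ± 0.42 was near 0.

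**Figure D2:**
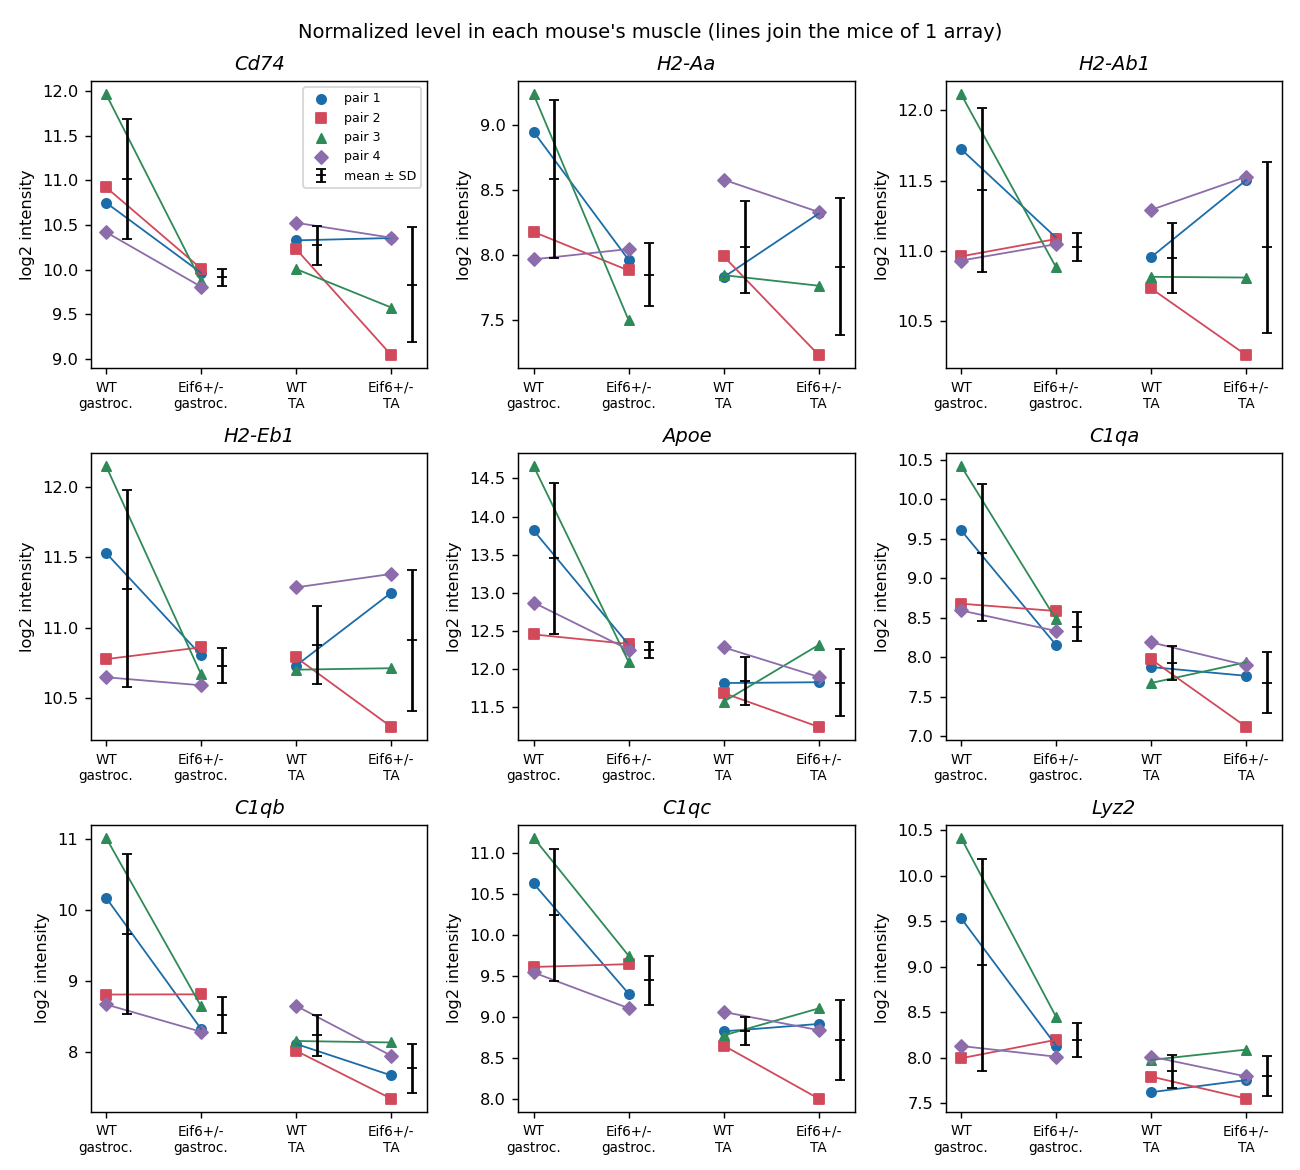
Normalized log2 intensity (vertical axis) of the 9 measured genes in the 4 mice of each genotype and muscle; lines join the mice of 1 array, and black bars give the mean and SD. The WT gastrocnemius samples of pairs 1 and 3 are the highest for every gene except Cd74, in which pair 2 exceeds pair 1, whereas in TA the Eif6+/- samples have the wider spread.

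C1qa, C1qb and C1qc encode the A, B and C chains of C1q, the recognition subunit that starts the classical complement pathway. C1qa had ratios of -1.45, -0.09, -1.94 and -0.26 in gastrocnemius and -0.11, -0.85, 0.26 and -0.29 in TA. C1qb had ratios of -1.85, 0.00, -2.38 and -0.38 in gastrocnemius and -0.44, -0.67, -0.02 and -0.70 in TA. The C chain, C1qc, had ratios of -1.34, 0.03, -1.44 and -0.43 in gastrocnemius and 0.09, -0.65, 0.33 and -0.22 in TA. The chains thus ordered the gastrocnemius arrays in the same way, with pair 3 lowest, pair 1 next, then pair 4 and pair 2.

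For C1qb the WT gastrocnemius levels were 10.18, 8.81, 11.02 and 8.67, a range of 2.35 on the log2 scale, and the Eif6+/- levels were 8.33, 8.81, 8.64 and 8.29, a range of 0.53. The WT mice of pairs 2 and 4 lay inside or close to the Eif6+/- range, and only the WT mice of pairs 1 and 3 lay clear of it. C1qb was the only measured gene below 0 on all 4 TA arrays, with a mean of -0.46 ± 0.31. Mean gastrocnemius ratios of the chains were -0.94 ± 0.90, -1.15 ± 1.14 and -0.79 ± 0.71 for C1qa, C1qb and C1qc, each close to its SD in size.

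Apoe encodes apolipoprotein E, a lipid carrier that cells take up through surface receptors. On 10 spots per array, its ratios were -1.5, -0.12, -2.57 and -0.62 in gastrocnemius and 0.01, -0.44, 0.74 and -0.39 in TA. WT gastrocnemius levels were 13.82, 12.46, 14.66 and 12.87, and Eif6+/- levels were 12.32, 12.33, 12.10 and 12.26. The Eif6+/- mice differed from each other by only 0.23 on the log2 scale while the WT mice spanned 2.21, and the groups did not overlap, with a mean ratio of -1.20 ± 1.07 and a fold of 0.435. In TA the mean ratio was -0.02 ± 0.55 and the sign was split over the 4 arrays.

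Lyz2 encodes lysozyme M, a bacteriolytic enzyme of macrophages and neutrophils. Its ratios were -1.40, 0.20, -1.97 and -0.12 in gastrocnemius and 0.13, -0.24, 0.11 and -0.22 in TA. WT gastrocnemius levels of 9.53 and 10.42 on pairs 1 and 3 stood beside 7.99 and 8.13 on pairs 2 and 4, and the Eif6+/- levels were 8.01 to 8.45. Lyz1, a near-identical paralog looked at after these values were seen, had ratios of -1.83, 0.91, -2.07 and 0.33 in gastrocnemius and of 0.96, 0.51, 0.91 and 0.03 in TA, where it lay above 0 on all 4 arrays and Lyz2 did not. Because cross-hybridisation between the paralogs was not tested, the Lyz2 values are uncertain.

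Over the 9 measured genes, mean gastrocnemius ratios ran from -1.20 to -0.40 with a median of -0.82, and all 9 means were below 0. Cd74, Apoe and C1qa, 3 of 9 genes, were below 0 on all 4 gastrocnemius arrays, beside 13.9% of all 12612 genes kept in that muscle; the genes were chosen on this ratio, and nothing is read from the comparison. The same 3 genes of 9 had all WT levels above all Eif6+/- levels, beside 6.41% of all genes. In TA 1 of 9 genes was below 0 on all 4 arrays, beside 15.6% of 12384 genes, and 0 of 9 had all WT levels above all Eif6+/- levels, beside 7.32%. Mean TA ratios ran from -0.46 to 0.08 with a median of -0.11.

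With gastrocnemius pairs 1 and 3 both left out, a choice made after seeing the data, the median of the 9 mean gastrocnemius ratios was -0.18 in place of -0.82. On those remaining 2 arrays Cd74 kept a mean of -0.76, Apoe had -0.37, and H2-Ab1, H2-Eb1 and Lyz2 had means of 0.12, 0.01 and 0.04, above 0. Only Cd74 among the 9 thus kept a mean ratio below -0.5 without these pairs. The difference of the ratios between muscles, gastrocnemius minus TA, had a median of -0.68 over the 9 genes and was not tested.

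The spread between mice differed by genotype and muscle. In gastrocnemius the SD of the WT levels exceeded that of the Eif6+/- levels for 9 of 9 genes, with median SDs of 0.80 and 0.18, and the same held for 69.2% of all genes, whose median SDs were 0.15 and 0.11. In TA the order was turned round: the Eif6+/- levels had the larger SD for 9 of 9 genes, with medians of 0.49 and 0.25, although the WT levels had the larger SD for 59.7% of all genes. The Eif6+/- TA sample of pair 2 was the lowest of its group for all 9 genes, with H2-Ab1, for example, at 10.26 against 10.81 to 11.53 in the other 3.

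Over the 8 arrays the log2 ratios of the macrophage genes Apoe, C1qa, C1qb, C1qc and Lyz2 had pairwise Pearson correlations of 0.94 to 0.99, and those of the 4 MHC class II genes 0.89 to 0.99. Correlations between a gene of one group and a gene of the other ran from 0.65 to 0.92, with a median of 0.86 beside 0.95 and 0.94 within the groups, and this range overlaps that of the MHC class II genes but not that of the macrophage genes. These are descriptions over 8 arrays in which pairs 1 and 3 of gastrocnemius lie far from the rest, and they were not tested.

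Promoters of members that moved together are shown to set their sequence beside their values. RefSeq promoter windows of 250 bases before to 50 after the start were matched for 6 of the 9 measured genes, on build GRCm38.p6. Windows of 5 genes are printed 5′ to 3′. Those of the remaining gene held neither of the letter strings marked below and are not printed. Capitals mark the Y box letters CTGATTGG in the MHC class II genes and AGGAAGT, a core bound by ETS factors of the PU.1 kind, in the macrophage genes. In all 13 letter strings were tried on both strands, 4 of them without a match in any of the 6 genes, and AGGAAGT was picked after the sequences had been read, so the matches were looked for until found.
H2-Aa, chr17:34287774-34288073, minus strand: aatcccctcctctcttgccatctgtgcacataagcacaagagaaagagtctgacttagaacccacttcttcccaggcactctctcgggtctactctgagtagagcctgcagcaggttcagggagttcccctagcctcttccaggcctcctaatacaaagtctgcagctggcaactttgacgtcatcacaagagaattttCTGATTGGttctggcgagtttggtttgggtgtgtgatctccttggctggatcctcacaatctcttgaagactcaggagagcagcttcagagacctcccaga
H2-Eb1, chr17:34305617-34305916, plus strand: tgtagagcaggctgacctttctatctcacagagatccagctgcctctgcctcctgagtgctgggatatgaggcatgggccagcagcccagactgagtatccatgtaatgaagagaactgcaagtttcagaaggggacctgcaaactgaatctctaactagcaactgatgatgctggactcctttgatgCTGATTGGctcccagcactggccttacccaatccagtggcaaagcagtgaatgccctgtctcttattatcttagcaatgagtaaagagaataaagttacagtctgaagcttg
C1qb, chr4:136886151-136886450, minus strand: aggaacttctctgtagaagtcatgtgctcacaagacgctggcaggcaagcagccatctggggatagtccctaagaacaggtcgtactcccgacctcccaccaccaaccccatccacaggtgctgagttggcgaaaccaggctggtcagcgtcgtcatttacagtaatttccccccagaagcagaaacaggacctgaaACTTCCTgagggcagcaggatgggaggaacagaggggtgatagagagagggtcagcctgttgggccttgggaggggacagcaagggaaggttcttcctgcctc
C1qc, chr4:136892865-136893164, minus strand: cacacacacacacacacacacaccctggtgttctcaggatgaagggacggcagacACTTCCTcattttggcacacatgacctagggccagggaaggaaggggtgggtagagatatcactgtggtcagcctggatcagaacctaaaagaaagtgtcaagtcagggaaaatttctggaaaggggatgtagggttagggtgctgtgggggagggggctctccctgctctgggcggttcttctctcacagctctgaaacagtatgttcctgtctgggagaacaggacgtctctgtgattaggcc
Lyz2, chr10:117282223-117282522, minus strand: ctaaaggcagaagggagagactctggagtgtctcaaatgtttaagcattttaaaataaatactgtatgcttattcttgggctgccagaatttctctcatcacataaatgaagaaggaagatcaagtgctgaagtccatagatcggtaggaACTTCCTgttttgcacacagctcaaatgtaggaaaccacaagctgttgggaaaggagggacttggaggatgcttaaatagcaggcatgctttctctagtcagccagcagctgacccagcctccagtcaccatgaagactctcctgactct
The Y box letters began at base -51 from the start in H2-Aa and at base -62 in H2-Eb1, in the written orientation, and 4.1% of all 32851 promoter windows held them. The ETS core was found as its reverse complement ACTTCCT, beginning at base -53 in C1qb, -195 in C1qc and -100 in Lyz2, and 9.35% of all windows held it on either strand. A match describes the letters and no more, and binding was not measured.

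The level between muscles was tested with limma on the mean log2 level of both genotypes on each array, over all genes kept in both muscles. This level is not independent of the ratio that chose the genes, because a high WT gastrocnemius sample raises the level and lowers the ratio. The test took no account of that choice. Of the 9 measured genes, 5 were higher in gastrocnemius than in TA at an adjusted p under 0.1, beside 13.1% of all 12206 genes, and 0 were lower, beside 20.3%. These 5 were the macrophage genes. Apoe averaged 12.85 ± 0.45 in gastrocnemius and 11.83 ± 0.27 in TA, a difference of 1.02 (SE 0.21, limma adjusted p = 0.0080). C1qa differed by 1.05 (SE 0.19, adjusted p = 0.0046), C1qb by 1.09 (SE 0.25, adjusted p = 0.014) and C1qc by 1.07 (SE 0.22, adjusted p = 0.0091), each about 2.1-fold. For these genes every gastrocnemius array lay above every TA array, and how many of all genes did so was not counted.

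Lyz2 differed by 0.79 (SE 0.26, adjusted p = 0.058), and this call was lost without gastrocnemius pair 1 (adjusted p = 0.13) or without TA pair 1, 2 or 4 (adjusted p = 0.12, 0.13 and 0.10). The MHC class II genes did not pass the threshold. Their differences were 0.41 for Cd74 (SE 0.20, adjusted p = 0.18), 0.23 for H2-Aa (SE 0.17, adjusted p = 0.37), 0.24 for H2-Ab1 (SE 0.19, adjusted p = 0.40) and 0.11 for H2-Eb1 (SE 0.19, adjusted p = 0.72), with 95% intervals that include 0. Without TA pair 4, H2-Aa passed at a difference of 0.39 (adjusted p = 0.098). The interval for Cd74 reached 0.86, so a difference as large as that of Lyz2 is not shut out for it.

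The samples of pairs 1 and 3 also bear on the muscle comparison. With those gastrocnemius arrays left out, Apoe, C1qa, C1qb and C1qc were still past the threshold, at differences of 0.65, 0.74, 0.64 and 0.70 (limma adjusted p = 0.034, 0.012, 0.045 and 0.039), and Lyz2 was not, at 0.26 (adjusted p = 0.16). By genotype, gastrocnemius minus TA was 1.40, 1.43 and 1.41 in WT and 0.71, 0.74 and 0.73 in Eif6+/- mice for C1qa, C1qb and C1qc, and muscles did not overlap in either genotype. For Apoe the differences were 1.61 in WT, without overlap, and 0.43 in Eif6+/- mice, with overlap. Mean levels of the C1q chains were thus higher in gastrocnemius in both genotypes, a description with no test by genotype. How many of all genes had no such overlap was not counted, so nothing is read from the lack of overlap.

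**Figure D3:**
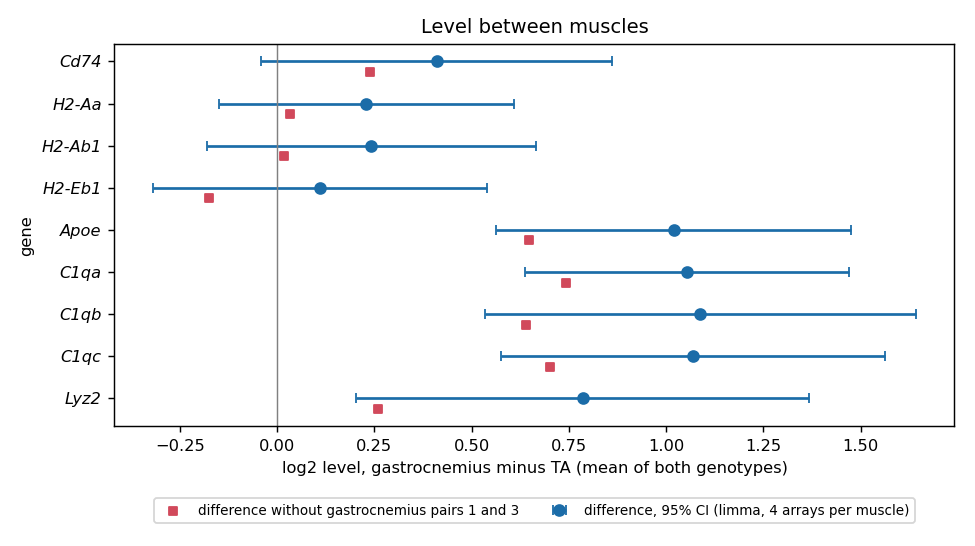
Difference in log2 level between gastrocnemius and TA (horizontal axis) for the 9 measured genes, averaged over genotypes, with 95% confidence intervals from limma (4 arrays per muscle) and, as squares, the difference without gastrocnemius pairs 1 and 3. Apoe, the C1q chains and Lyz2 lie right of 0 with their intervals, and the intervals of the 4 MHC class II genes include 0.

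Other genes of the same pathways were tested against 0 on the 4 arrays of each muscle with limma, from 8 lists that hold 142 genes, of which 121 were kept in each muscle. In gastrocnemius 30 of 121 passed an adjusted p of 0.1, 27 lower in Eif6+/- mice (22.3%, beside 5.55% of all genes) and 3 higher (2.48%, beside 9.89%). In TA 17 of 121 passed, 7 lower (5.79%, beside 7.27% of all genes) and 10 higher (8.26%, beside 8.98%). The lists were chosen with earlier results of these data known, around genes chosen by their ratios. The shares are thus not independent of that choice, and nothing is read from the comparison with all genes. The median of the mean ratios was -0.33 in gastrocnemius and 0.01 in TA, beside 0.02 over all genes in each muscle. The gastrocnemius count depended on single arrays: it was 0 without pair 3 and 0 without pair 4 by limma, as was the count over all genes kept in the muscle, with 31 and 50 of 121 at an unadjusted p under 0.05, 15 without pair 1, and 46 without pair 2. In TA it was 0 without pair 1, where 68 of all genes passed, with 28 of 121 at an unadjusted p under 0.05. SAM, run on all 4 arrays, passed 31 and 13 genes. Without gastrocnemius pairs 1 and 3 the count there was 16 on the remaining 2 arrays, and Stab1, Cd14, Ctsc, Itgb2, C1s1, C3ar1 and H2-DMa, described below, no longer passed, while Lrp1, Pltp, Grn, Ctsd, Psap, H2-D1 and Calr did. The difference between the muscles was tested itself, and 0 of 121 genes passed, as did 0 of all 12206, with 23 of the 121 at an unadjusted p under 0.05.

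Of the genes that load and control MHC class II, 12 of 20 were kept, and in gastrocnemius 1 fell, 0 rose and 11 did not pass. H2-DMa, a chain of the peptide exchange factor H2-M, had ratios of -0.45, -0.39, -0.60 and -0.14, a mean of -0.39 (SE 0.09, limma adjusted p = 0.055). The master regulator Ciita was not well above background in either channel on enough arrays to be kept, and neither were H2-Oa, H2-Ob and H2-Eb2. Ctss, the cathepsin that trims the invariant chain, was singled out after its values were seen: it did not pass, with gastrocnemius ratios of -1.98, 0.92, -2.19 and 0.25. In TA 0 of the 12 genes passed, with a list median of 0.03.

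Most other macrophage genes showed the pair pattern. The list median was -1.17 on gastrocnemius pair 1, 0.23 on pair 2, -1.14 on pair 3 and -0.03 on pair 4, and 29, 6, 28 and 16 of the 30 kept genes were below 0. By the test 4 fell, 0 rose and 26 did not pass. The scavenger receptor Stab1 fell by 0.69 on the log2 scale (SE 0.20, adjusted p = 0.085), the lipopolysaccharide co-receptor Cd14 fell by 0.63 (SE 0.17, adjusted p = 0.070), and the lysosomal peptidase Ctsc fell by 0.58 (SE 0.18, adjusted p = 0.099), each lower on 4 of 4 arrays. In TA 2 of 30 rose and 0 fell: Gpnmb by 0.57 (SE 0.10, adjusted p = 0.026) and Cbr2 by 0.47 (SE 0.10, adjusted p = 0.036).

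Among macrophage genes that did not pass, these were picked out after their values were seen. Csf1r, the receptor for the macrophage growth factor CSF1, had WT gastrocnemius levels of 12.00, 10.76, 11.87 and 11.07 and Eif6+/- levels of 11.05, 11.20, 11.01 and 11.04. Adgre1, which encodes the F4/80 antigen, had ratios of -1.22, 0.90, -1.14 and 0.25. Lgals3, a lectin of phagocytes, had ratios of -2.73, 0.66, -2.75 and 0.10. For all of them the WT mice of pairs 1 and 3 were high, and on pair 2 the ratio had the opposite sign. The summed intensity of the list's probes, as log2, was 15.15, 14.19, 15.27 and 14.21 in WT gastrocnemius and 14.21, 14.56, 14.37 and 14.19 in Eif6+/- gastrocnemius.

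Of the other complement genes 15 of 17 were kept; 3 fell in gastrocnemius, 0 rose and 12 did not pass. Itgb2, the beta chain of complement receptors on leukocytes, fell by 0.59 in gastrocnemius (SE 0.17, adjusted p = 0.079) and by 0.24 in TA (SE 0.07, adjusted p = 0.090), lower on 4 of 4 arrays of each muscle. C1s1, a protease of the classical complement pathway, fell by 0.55 (SE 0.16, adjusted p = 0.091), and C3ar1, a receptor for a fragment of C3, fell by 0.36 (SE 0.10, adjusted p = 0.079). On the arrays the list median was -0.57, 0.36, -1.07 and -0.24 in gastrocnemius and 0.19, -0.40, 0.11 and 0.11 in TA. In TA 2 of 15 fell and 0 rose.

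Apolipoprotein E partners and lipid handling genes went both ways: of 14 kept, 2 fell and 2 rose in gastrocnemius, and 0 fell and 3 rose in TA. Lrp1, a receptor for apolipoprotein E, fell by 0.78 in gastrocnemius (SE 0.16, adjusted p = 0.046), the phospholipid transfer protein Pltp fell by 0.71 (SE 0.12, adjusted p = 0.035), and the receptor Vldlr rose by 0.36 (SE 0.09, adjusted p = 0.060). In TA Apoc1, a neighbour of Apoe in the genome, rose by 0.51 (SE 0.12, adjusted p = 0.045) and Sort1 by 0.50 (SE 0.10, adjusted p = 0.036). Apoe itself had a TA mean of -0.02.

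Lysosomal genes gave 6 lower, 0 higher and 8 not past of 14 in gastrocnemius, and 3, 0 and 11 in TA. Grn, which encodes progranulin, fell by 1.08 in gastrocnemius (SE 0.23, adjusted p = 0.046), with ratios of -1.28, -0.38, -1.92 and -0.73. Ctsd, the aspartic protease cathepsin D, fell by 0.53 in gastrocnemius (SE 0.08, adjusted p = 0.032) and by 0.44 in TA (SE 0.09, adjusted p = 0.034). Psap, the precursor of the saposins, fell by 0.52 (SE 0.07, adjusted p = 0.029) and by 0.46 (SE 0.08, adjusted p = 0.026). For Psap the gastrocnemius ratios were -0.43, -0.51, -0.67 and -0.47, so pairs 1 and 3 did not stand apart for it as they did for Grn.

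MHC class I genes, which are transcribed in most cells, had 7 lower, 0 higher and 6 not past of 13 in gastrocnemius, and 2, 1 and 10 in TA. H2-D1, a class I heavy chain, fell by 0.62 in gastrocnemius (SE 0.13, adjusted p = 0.046), and the chaperone Calr fell by 0.62 (SE 0.11, adjusted p = 0.036). Calr also fell by 0.35 in TA (SE 0.10, adjusted p = 0.068), where Tapbp fell by 0.27 (SE 0.08, adjusted p = 0.079) and Nlrc5, a class I transactivator, rose by 0.24 (SE 0.08, adjusted p = 0.097). The class I median was -0.25, -0.13, -0.71 and -0.20 on the gastrocnemius arrays, below 0 on pairs 2 and 4 as well.

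Genes of the interferon gamma response, which induces class II expression, gave 1 lower and 1 higher of 11 in gastrocnemius and 0 lower and 3 higher in TA. Socs1, a feedback inhibitor, fell by 0.59 in gastrocnemius (SE 0.12, adjusted p = 0.046). The GTPase gene Gbp3 rose by 0.31 in gastrocnemius (SE 0.07, adjusted p = 0.058) and by 0.33 in TA (SE 0.10, adjusted p = 0.080), and Igtp rose by 0.30 in TA (SE 0.08, adjusted p = 0.055). The list median stayed between -0.14 and 0.12 on the gastrocnemius arrays, pairs 1 and 3 included.

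Of macrophage growth factors and chemoattractants, 12 of 13 were kept, and 3 fell in gastrocnemius, 0 rose and 9 did not pass. Tgfb1 fell by 0.46 (SE 0.09, adjusted p = 0.044) and the chemokine Ccl24 fell by 0.33 (SE 0.09, adjusted p = 0.067). In TA Csf2ra, a chain of the GM-CSF receptor, rose by 0.42 (SE 0.09, adjusted p = 0.038), and 0 of the 12 fell. Ccl8, a monocyte chemoattractant named after its values were seen, did not pass, with gastrocnemius ratios of -3.22, 1.29, -2.41 and -0.54.

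**Figure D4:**
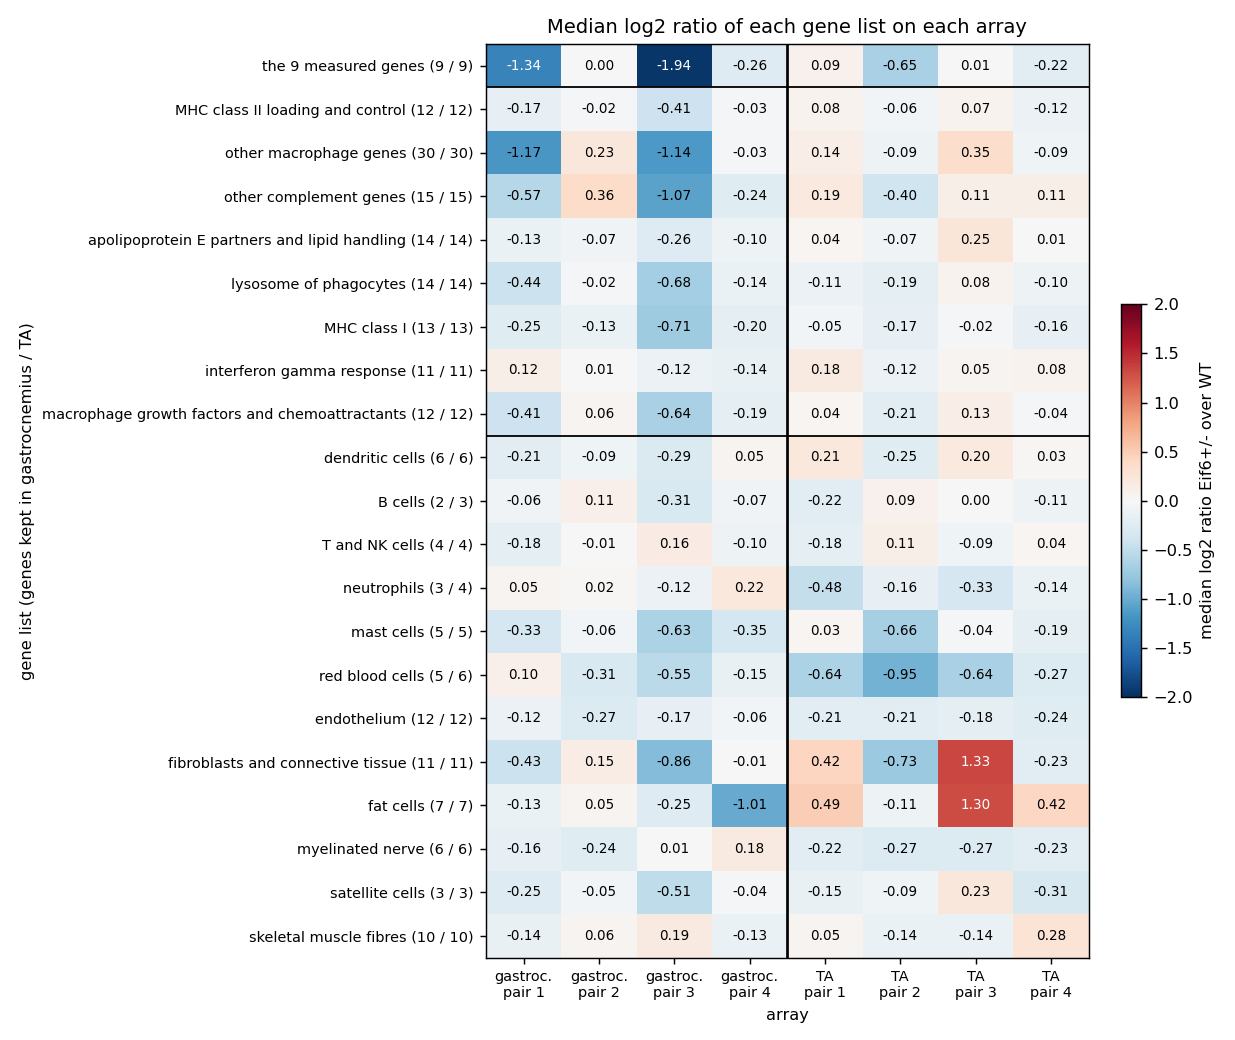
Median log2 ratio of Eif6+/- over WT (colour and number) of each gene list (rows, with the number of genes kept in gastrocnemius and TA) on each of the 8 arrays (columns). Gastrocnemius pairs 1 and 3 are the lowest of the 8 arrays for the 9 measured genes and for every pathway list except interferon gamma response, and fibroblast and fat cell lists are highest on TA pair 3.

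Many markers of dendritic, B and T cells were too dim to be kept. Of 8 B cell markers 2 were kept in gastrocnemius and 3 in TA, and Ms4a1 and Cd79a were not kept in either. Dendritic cell markers were kept for 6 of 10 genes in each muscle, with 0 past the threshold and list medians of -0.21, -0.09, -0.29 and 0.05 on the gastrocnemius arrays, lowest on pairs 1 and 3, and Flt3, the first of that list, had a gastrocnemius mean of -0.15 (limma adjusted p = 0.31). Of T and NK cell markers 4 of 10 were kept and 0 passed, and Cd3e had means of 0.03 and 0.04 in gastrocnemius and TA. Cd3d and Cd3g were too dim to be kept, whereas Cd3e was above background on all 8 arrays. What the Cd3e values say about T cells is therefore uncertain. Summed over the kept B cell probes, the log2 intensity was 7.76 to 8.07 in WT and 7.76 to 7.89 in Eif6+/- gastrocnemius, and the WT samples of pairs 1 and 3 were at 7.83 and 8.07.

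Connective tissue markers moved in part with the same samples. Of 11 fibroblast and connective tissue markers, 2 fell in gastrocnemius, Dpt by 0.50 (SE 0.12, adjusted p = 0.060) and Thy1 by 0.35 (SE 0.09, adjusted p = 0.071), and 0 passed in TA. The list median was -0.43, 0.15, -0.86 and -0.01 on the gastrocnemius arrays and 0.42, -0.73, 1.33 and -0.23 on the TA arrays, and its summed log2 intensity was 17.53, 16.91, 18.30 and 17.17 in WT gastrocnemius. Col1a1 had gastrocnemius ratios of -0.13, 0.30, -1.58 and -0.01, low on pair 3 and near 0 on pair 1. On pair 1 the ratios of 9 of the 11 markers were below 0, Col1a2 and Dcn being above it at 0.26 and 0.27, and on pair 3 those of 11 of 11 were. Of those low on both pairs, picked after their values were seen, Col3a1 had -1.94, 0.15, -2.50 and -0.58, Fn1 had -1.12, 0.72, -2.46 and 0.06, and Lum had -0.70, 0.72, -0.73 and 0.05. Of the neutrophil markers 3 were kept in gastrocnemius and 0 passed, with a list median of 0.05 on pair 1 and -0.12 on pair 3. S100a8 and S100a9 were too dim on some gastrocnemius arrays to be kept there, yet their ratios, read after the pattern was seen, were lowest on pairs 1 and 3: -0.82, 0.14, -1.74 and -0.18 for S100a8 and -1.95, 0.08, -2.71 and -0.17 for S100a9. The Eif6+/- channel of S100a8 was above background on only 1 of the 8 arrays, so the size of its ratios is uncertain. In TA S100a9 was kept, where it had ratios of -2.80, -0.75, -2.26 and -0.65 and fell by 1.61 (SE 0.33, adjusted p = 0.034), and Camp fell by 0.32 (SE 0.10, adjusted p = 0.099). The call of Camp was lost under 9 of 13 other ways of processing or leaving out an array. What part these cells had in the ratios of the 9 genes was not tested.

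On gastrocnemius pairs 1 to 4 the list medians were -0.33, -0.06, -0.63 and -0.35 for mast cells, 0.10, -0.31, -0.55 and -0.15 for red blood cells, and -0.12, -0.27, -0.17 and -0.06 for endothelium. None of these medians had pairs 1 and 3 as its lowest, but single genes did. The mast cell genes Cpa3 (-0.40, 0.13, -0.89 and -0.35), Mcpt4 (-0.24, -0.06, -0.63 and -0.12) and Cma1 (-0.70, 0.00, -0.81 and -0.38) were lowest on pairs 1 and 3. Tpsb2 and Kit were not, and of the endothelial genes Vwf was. For mast cells, 2 of 5 kept genes fell in gastrocnemius and 1 of 5 in TA, with Tpsb2 down by 0.39 on the log2 scale (mean -0.39, SE 0.08, adjusted p = 0.041), Cma1 at -0.32 in TA (SE 0.10, adjusted p = 0.083), and Cpa3 not past at -0.38 and -0.30. Red blood cell genes had 0 of 5 past in gastrocnemius and 4 of 6 lower in TA, where Hbb-bs fell by 1.30 (SE 0.19, adjusted p = 0.017) and Hba-a1 fell by 0.72 (SE 0.13, adjusted p = 0.028). Endothelial genes had 3 and 5 of 12 lower. Cldn5 fell by 0.63 and by 0.67 (SE 0.12 and 0.12, adjusted p = 0.040 and 0.024), Eng fell by 0.57 in gastrocnemius (SE 0.08, adjusted p = 0.029), Tie1 fell by 0.49 in TA (SE 0.09, adjusted p = 0.029), and Pecam1 had means of -0.24 and -0.32. On TA pair 2, where the 9 genes were low, the medians of mast cells (-0.66) and red blood cells (-0.95) were the lowest of the TA arrays. The endothelial median there, -0.21, was not.

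Fat cell genes had 2 of 7 lower in gastrocnemius and 3 of 7 higher in TA. Adipoq had gastrocnemius ratios of -0.36, 0.00, -0.87 and -1.34 (mean -0.64, SE 0.20, adjusted p = 0.0996) and Cfd a mean of -0.89 (SE 0.24, adjusted p = 0.074), with pair 4 lowest for both, and Cidec rose by 0.60 in TA (SE 0.17, adjusted p = 0.071). Nerve markers had 0 of 6 past in gastrocnemius and 3 of 6 lower in TA, with Prx at -0.44 (SE 0.08, adjusted p = 0.027). Satellite cell markers had 0 of 3 past in either muscle, and Pax7 had means of -0.09 and -0.08. The satellite cell median on gastrocnemius pairs 1 to 4 was -0.25, -0.05, -0.51 and -0.04, but of the 3 genes only Vcam1 was lowest on pairs 1 and 3, and Pax7 was above 0 there, at 0.09 and 0.14.

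Markers of skeletal muscle fibres checked the tissue: all 10 were kept in both muscles. In gastrocnemius 2 fell and 1 rose, with Ckm at -0.37 (SE 0.09, adjusted p = 0.058), Actn3 at -0.36 (SE 0.09, adjusted p = 0.057) and Myh1 at 0.96 (SE 0.22, adjusted p = 0.052). In TA 1 fell and 2 rose, with Mylpf at -0.34 (SE 0.08, adjusted p = 0.051), Tnnc2 at 0.57 (SE 0.10, adjusted p = 0.026) and Myh4 at 0.80 (SE 0.10, adjusted p = 0.012). The list median on gastrocnemius pairs 1 and 3 was -0.14 and 0.19.

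Outside the lists, 5 genes of immature muscle were looked at after the pattern was seen, and 4 of the 5 were high in the same WT samples. Myh3, the embryonic myosin heavy chain, had WT gastrocnemius levels of 11.28, 6.91, 11.67 and 7.90 and Eif6+/- levels of 8.33, 6.87, 8.43 and 8.09. Tnnt2, the cardiac and embryonic troponin T, had WT levels of 9.68, 8.01, 10.26 and 7.79 there and Eif6+/- levels of 7.54, 7.87, 7.74 and 7.44. Myog, the myogenic factor myogenin, had gastrocnemius ratios of -1.04, 0.42, -0.86 and 0.03, and Chrna1, a subunit of the acetylcholine receptor, had -1.36, 0.56, -0.98 and -0.12. Myh8, the perinatal myosin heavy chain, did not share them, with WT levels of 17.30, 16.77, 16.72 and 16.98 and ratios of 0.08, 0.60, 0.65 and 0.52. The probe of Myh4, a myosin of the fibre list, had levels of 17.14, 16.57, 16.64 and 16.82 in those WT samples. Because cross-hybridisation between myosin genes was not tested, the Myh8 values are uncertain. Whether the 4 genes and the macrophage genes are linked was not tested. In TA Myh3 had ratios of -0.40, 2.09, -0.28 and -1.69, beside medians of the 9 measured genes of 0.09, -0.65, 0.01 and -0.22. The signs were thus opposite on pair 2 and the same on pair 4 alone.

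The genes most like the median of the 9 measured genes were ranked by Pearson correlation of log2 ratios over the 8 arrays, among 12188 other genes, as a description with no test. The 8 highest were Lcp1 (r = 0.995, Spearman's rho = 0.976), Loxl3 (0.990 and 0.929), Csf2ra (0.985 and 0.952), Ptpn6 (0.984 and 0.976), B4galt6 (0.983 and 1.00), Cd52 (0.981 and 0.881), Laptm5 (0.978 and 0.810) and Cfp (0.977 and 0.881). Lcp1 encodes a leukocyte actin-bundling protein, Ptpn6 a phosphatase of blood cells, and Cfp properdin of the alternative complement pathway. With the 2 arrays farthest from the median left out, gastrocnemius pairs 1 and 3, r over 6 arrays was 0.96 for Lcp1, 0.98 for Ptpn6 and 0.98 for B4galt6, and it dropped to 0.74 for Laptm5. Lcp1 had ratios of -1.22, -0.05, -1.77 and -0.31 in gastrocnemius and 0.00, -0.47, 0.02 and -0.26 in TA, so it shared the low TA pair 2 as well. In all, 246 genes, 2.02%, had r above 0.9.

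**Figure D5:**
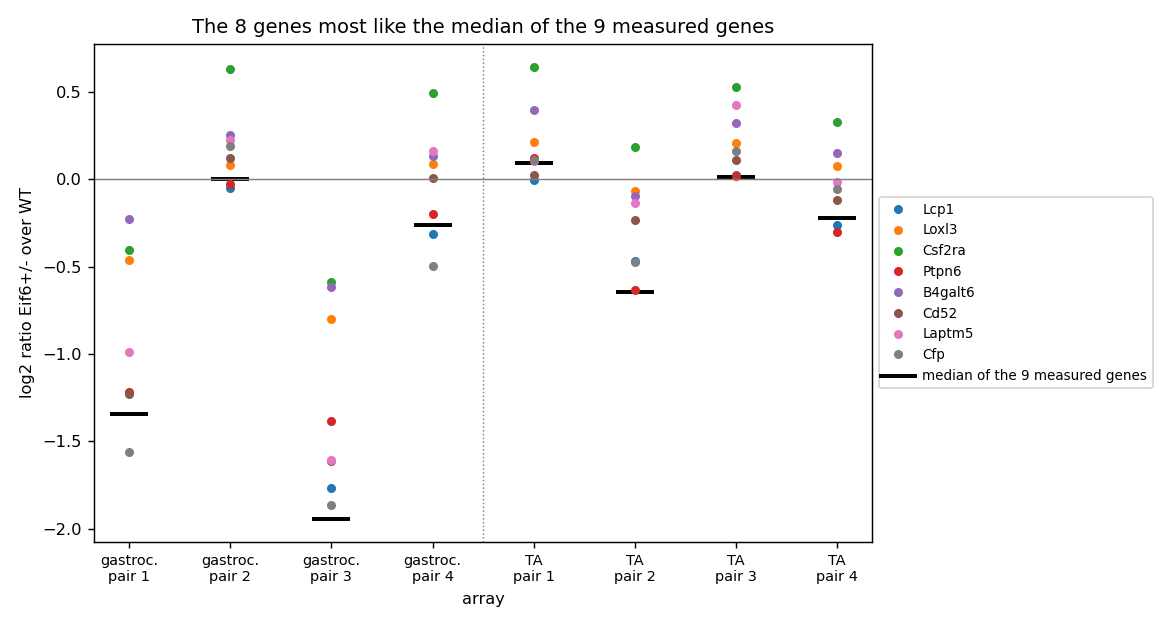
Log2 ratio of Eif6+/- over WT (vertical axis) on each array (horizontal axis) for the 8 genes of highest correlation, 1 point per gene, with the median of the 9 measured genes as a bar. The points follow the bar down on gastrocnemius pairs 1 and 3 and on TA pair 2, and 4 of the 8 genes, Loxl3, Csf2ra, B4galt6 and Laptm5, lie above the bar on all 8 arrays.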

How the data were processed

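Each array was read with Agilent Feature Extraction 10.5.1.1. The scanner files the authors deposited hold, per spot, the intensity of each channel, and their value table holds log2 ratios per spot. Each column of that table correlated at 1.00 with loess ratios without background correction, in the direction Eif6+/- over WT, and its medians were 0.00257, 0.000831, -0.00441, 0.00375, 0.00138, -0.000366, 0.00288 and 0.00212; whether the authors also scaled between arrays in it is unknown.

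Median signals were background-corrected (normexp, offset 50), normalized by loess within arrays and by quantiles over all 16 channels with limma 3.58.1 in R 4.3.3. Control spots were left out, as were outlier spots (233 to 318 per array), no spot was saturated, and spots of a probe were averaged. For a muscle, probes were kept that on each of its 4 arrays had 1 or both channels well above background: 23806 probes in gastrocnemius, 23397 in TA. All 10 probes of the 9 genes were kept, well above background in both channels on all 8 arrays. A channel's level is the mean log2 intensity of its array plus or minus 0.5 times the log2 ratio. Accessions named 27235 of 28685 RefSeq probes. The mouse gene table is of build GRCm38.p6, not that of the array, so it was used for names, and the only coordinates given are those of the printed promoters. Of several probes for a gene, the one with the highest mean level over the 8 arrays stands for it.

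Log2 ratios of other genes were tested against 0 with limma in each muscle, and levels between muscles over all 8 arrays, with Benjamini-Hochberg adjustment over all kept probes and a threshold of 0.1. The methods' SAM was run with all 16 sign changes. The number of arrays, 4 per muscle, limits the precision. Named genes were drawn from every member, Eif6, up to 3 genes per list and muscle past the threshold with 1 sign on all 4 arrays (at most 2 per direction beyond the first 5 lists), the first marker of each cell type list, and the 8 most alike. The members and lists were chosen with earlier results of these data known. Alternatives were other background corrections, normalizations, filters, probe summaries and tests, the deposited ratios, and leaving out each array.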

Additional observations from a re-analysis of the deposited data

Results flagged for a closer look

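In the 54 sets of 4 samples checked (the ratio and both levels of 9 genes in 2 muscles), 1 held a sample far from the others. The WT TA sample of pair 4 had an H2-Eb1 level of 11.29 against 10.70 to 10.79 in the other 3, a gap of 0.852 of the whole range. Chance gives about 1 in 20 such sets. The Eif6+/- sample of the same array was also the highest of its group, at 11.38, and the ratio on that array was 0.10.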

How the results depend on the processing

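The median gastrocnemius ratio of the 9 genes was below 0 under all 13 other ways of processing or leaving out an array, from -1.16 to -0.58. So was each gene's mean, with H2-Ab1 nearest to 0 at -0.13. All 13 kept pair 1, pair 3 or both, and the genes were chosen on this ratio. Without both pairs the median lay nearer to 0, and H2-Ab1, H2-Eb1 and Lyz2 had means above 0, as given earlier. In TA the median ran from -0.26 to 0.05, above 0 without pair 2. The count of other listed genes past the threshold, 30 in gastrocnemius and 17 in TA, was 13 and 10 with the scanner software's processed signals, for which the cause was not tested. Leaving out single arrays gave 0 to 46 genes in gastrocnemius and 0 to 19 in TA, with fewer samples in each fit, and leaving out gastrocnemius pairs 1 and 3 together, chosen after seeing the data, gave 16. No direction turned for the 57 named results among listed genes, and 199 of 823 of their alternative values no longer passed. In gastrocnemius 0 of 29 named results passed without pair 3 or without pair 4, when 0 of all genes passed. In TA 2 of 28 passed without pair 1, when 68 of all genes did, and 17 of 28 passed without pair 2. Some values moved widely. Those of Camp, Gpnmb and Cma1 in TA ran from -1.31 to -0.19, from 0.47 to 1.62 and from -0.96 to -0.21. That of C3ar1 in gastrocnemius ran from -1.03 to -0.26.

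For the level between muscles 4 to 6 of 9 genes passed under 18 such changes, against 5. H2-Eb1, never past the threshold, ran from -0.025 (without gastrocnemius pair 3) to 0.26 (without TA pair 4) when single arrays were left out, and turned to -0.01 without TA pair 2, and to -0.17 without gastrocnemius pairs 1 and 3. With processed signals all genes shifted by a median of 0.22 between muscles, and H2-Aa passed at 0.64 (adjusted p = 0.074; range over its alternatives 0.074 to 0.71). Lyz2 did not pass without the filter on dim probes (adjusted p = 0.13; range 0.0081 to 0.13).

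Whether arrays of the same pair number hold the same mice is unknown. Deviations of the ratios from the muscle means correlated at -0.14, 0.02, -0.36 and 0.09 for the same numbers, and 0 of 4 arrays correlated best with its own number. For the mean levels these were -0.27, 0.12, 0.17 and 0.24, and 2 of 4 correlated best with their own number. With the pair number as a block, 5 of 9 genes passed. The median difference of the ratios between muscles was -0.68, as without it. The block cannot change that difference, because each muscle has every pair number once. Dim probes limit the lists: 21 of 142 genes were not kept.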
